A study of Mus musculus with 2 samples.

Results

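Lysosome genes were followed across the cell classes of the mouse pituitary gland in a young and an old library. The set held 29 genes of the 32285 that the deposited counts list. They were taken by symbol and not by a rule on measured values, but with earlier results of these data known. It covers 8 proteases (Ctsa, Ctsb, Ctsd, Ctsl, Ctss, Ctsz, Lgmn and Tpp1), 6 glycosidases (Hexa, Glb1, Gaa, Gla, Man2b1 and Neu1) and 3 enzymes that act on lipids or thioesters (Lipa, Asah1 and Ppt1). It also covers 4 membrane proteins (Lamp1, Lamp2, Cd63 and Scarb2), 2 precursor proteins (Psap and Grn), 2 proteins of cholesterol export (Npc1 and Npc2), 3 genes of the V-ATPase proton pump (Atp6v0d1, Atp6v1a and Atp6ap1) and the transcription factor Tfeb. Single cells of pituitary tissue from male mice of the inbred strain C57BL/6 were measured by droplet-based sequencing of transcript 3′ ends. The young library came from 10 glands of mice aged 2 months and the old library from 10 glands of mice aged 20 months. The labels name no mutation and no treatment in either. Each age is 1 pool, so mice cannot be told apart, no difference between ages could be tested, and every interval below is a 95% interval that covers counting error only.

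Lysosomes are acidic compartments in which hydrolases break down proteins, glycans and lipids taken up by endocytosis, phagocytosis or autophagy. Most of the enzymes are sorted to them by mannose 6-phosphate receptors, the V-ATPase keeps the lumen acidic, and TFEB switches on many lysosome genes through short DNA motifs with the core CACGTG. Tissue macrophages digest what they engulf there, while endocrine cells use lysosomes to remove old secretory granules.

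The core letters of that motif were looked for in the promoter windows of the RefSeq table, which run from 250 bases before to 50 bases after a start site. A window was found for 26 of the 29 genes. Ctsb, Npc1 and Asah1 had none. CACGTG, which reads the same on both strands, stood in the windows of 10 of the 26 genes (38.5%), namely Ctsa, Ctsd, Ctsl, Lamp1, Glb1, Gaa, Gla, Atp6v0d1, Atp6v1a and Lgmn, against 8.09% of all 27025 genes with a window. The longer TCACGTGA, which contains it, stood in 5 of the 26 (19.2%), against 1.12% of all genes. The following windows of 60 bases show the core in genes with high levels in macrophage-like cells (Ctsa, Ctsd and Lgmn), in a lysosomal membrane gene with several copies (Lamp1) and in genes without such levels (Gaa and Atp6v1a). They are given 5′ to 3′ on the gene's strand with the core in capitals. The positions are chr2:164833713-164833772 on the + strand for Ctsa, chr7:142387893-142387952 on the - strand for Ctsd, chr12:102439109-102439168 on the - strand for Lgmn, chr8:13159101-13159160 on the + strand for Lamp1, chr11:119267796-119267855 on the + strand for Gaa and chr16:44139358-44139417 on the - strand for Atp6v1a, in build GRCm38.p6.
Ctsa: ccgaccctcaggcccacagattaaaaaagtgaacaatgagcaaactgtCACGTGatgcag
Ctsd: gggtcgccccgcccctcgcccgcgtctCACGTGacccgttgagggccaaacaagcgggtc
Lgmn: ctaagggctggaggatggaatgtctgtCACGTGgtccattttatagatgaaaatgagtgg
Lamp1: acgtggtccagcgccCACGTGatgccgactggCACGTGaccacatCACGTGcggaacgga
Gaa: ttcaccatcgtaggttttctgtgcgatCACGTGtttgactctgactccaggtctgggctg
Atp6v1a: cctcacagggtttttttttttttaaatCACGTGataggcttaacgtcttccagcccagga

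In all, 154510099 captured transcripts were counted in the young library and 138427393 in the old one, each by its unique molecular identifier (UMI). Filters and doublet removal kept 8531 and 9017 barcodes, of which 1 young and 5545 old ones fell into a cluster with the profile of barcodes of at most 100 UMIs and were left out. Of the barcode sequences kept outside that cluster, 15 occurred in both libraries. Clusters were named from marker genes and are called "like" cells. Levels are given as CPM, the UMIs of a gene per 1000000 UMIs of all genes other than those of hormones and mitochondria. Because only transcript ends are counted, they are not scaled by gene length. Macrophage-like cells numbered 750 young and 413 old, stem cell-like cells 975 and 280, somatotroph-like cells 3994 and 1134, corticotroph-like cells 1252 and 308 and lactotroph-like cells 389 and 265. Melanotroph-like cells (44 and 151) and gonadotroph-like cells (62 and 35) were too few in a library for a comparison of ages. The 8 macrophage markers, among them Csf1r and the complement genes C1qa and C1qb, summed to 20100 CPM in young and 16400 CPM in old macrophage-like cells. In somatotroph-like cells they summed to 48.4 and 97.0 CPM. RNA released from broken cells reaches every droplet, and in the barcodes of at most 100 UMIs, used as its profile, the same markers summed to 1340 and 2340 CPM.

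Macrophage-like cells had by far the most lysosome RNA. The 29 genes together reached 23730 CPM in young and 20200 CPM in old macrophage-like cells, which is 2.14% and 1.82% of all their UMIs. Stem cell-like cells had more than any endocrine class, with 6493 and 5789 CPM. Endocrine classes lay lower, between 2951 CPM in young corticotroph-like and 4684 CPM in young gonadotroph-like cells. The level in macrophage-like cells was 6.71 times (young) and 6.43 times (old) that of somatotroph-like cells, and 3.65 and 3.49 times that of stem cell-like cells. Single cells, thinned to 2000 UMIs of all genes with hormones included, showed the same order. A young macrophage-like cell held a median of 40 lysosome UMIs (quartiles 29 and 53) and an old one 31 (22 and 46). The median was 11 and 10 in stem cell-like cells, and 4 in somatotroph-like cells of both libraries. T or NK cell-like cells had 3 and 4.

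Counted gene by gene, the excess in macrophage-like cells covered most but not all of the set. A gene was called when it differed at least 2-fold in both libraries with at least 20 UMIs over both classes. Against somatotroph-like cells, 18 of the 29 genes were higher in macrophage-like cells and 1 was lower, where 11.1% of all genes were higher and 33.1% lower. Against stem cell-like cells, 15 were higher and 1 lower (10.2% and 27.5% of all genes). The counts were 21 and 0 against corticotroph-like cells (12.1% and 32.0%), 19 and 1 against lactotroph-like cells (12.2% and 31.4%), 20 and 1 against melanotroph-like cells (12.4% and 27.3%) and 18 and 1 against gonadotroph-like cells (13.7% and 23.7%). The median log2 ratio of the set over somatotroph-like cells was 2.21 (young) and 2.03 (old), against -0.89 and -0.62 for all genes. These classes are clusters of the same cells, so the counts describe and do not test. When all genes of the lysosome lists were kept out of the clustering, each count of higher genes stayed within 1.5 times its value.

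Immune and glial cells spanned a wide range. Monocyte-like cells (94 young and 81 old), circulating relatives of macrophages, had 8109 and 7585 CPM of the 29 genes. Against them 13 genes were higher in macrophage-like cells and 0 lower, where 8.83% and 5.23% of all genes were so. Ctsd, at 136 and 201 CPM in monocyte-like cells, differed most, 28.8 (23.3 to 36.0) and 14.4 (12.3 to 17.0) times, followed by Lgmn and Cd63. Psap was higher in monocyte-like cells in the young library, at 2170 and 1570 CPM, and Ppt1 in both, at 366 and 206 CPM, without Ppt1 passing 2-fold in the old library. T or NK cell-like cells (147 and 169) had 1793 and 2307 CPM, and 25 genes were higher and 0 lower in macrophage-like cells against them (13.4% and 8.07% of all genes). The counts were 15 and 0 against endothelial cell-like cells (9.26% and 15.3%) and 13 and 1 against pituicyte-like cells, the glia of the posterior lobe (11.6% and 24.0%). Between stem cell-like and somatotroph-like cells 7 genes were higher in the former (Ctsb, Ctsd, Lamp1, Psap, Grn, Ppt1 and Lgmn) and 0 lower (14.6% and 15.3%).

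**Figure D1:**
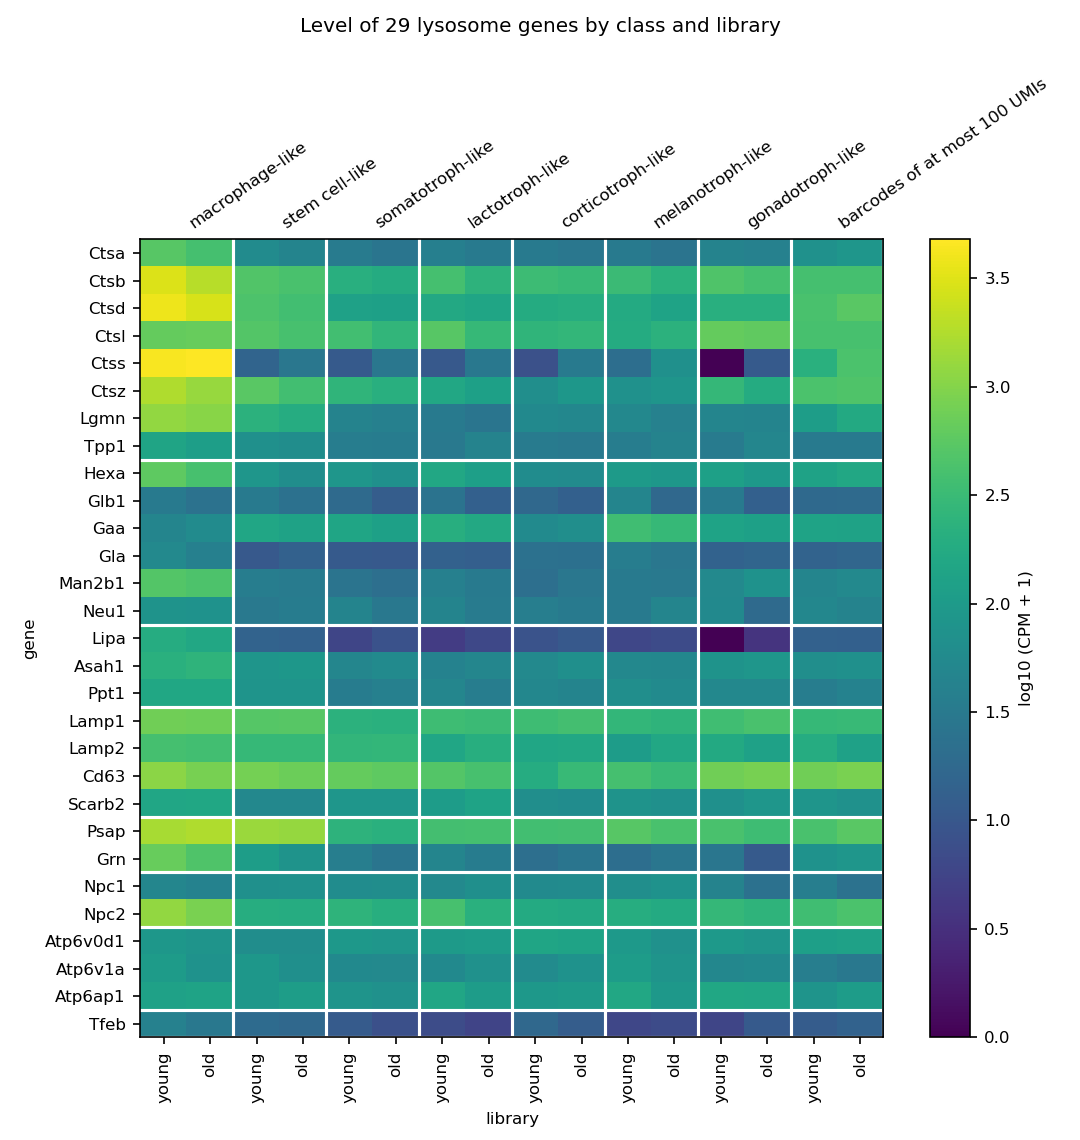
Levels of the 29 genes (rows, grouped by role with white lines) as log10 of CPM plus 1, by class and library (columns), with the barcodes of at most 100 UMIs at the right. The 2 macrophage-like columns are the brightest for most proteases, with Ctss at 4380 and 4770 CPM. Npc1, Glb1, Gaa and the V-ATPase genes had their highest mean of the 2 libraries in other classes.

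Proteases carried the difference. They made up 65.9% of the lysosome UMIs of young and 64.7% of old macrophage-like cells, against 30.5% and 28.6% in somatotroph-like and 36.0% and 32.5% in stem cell-like cells. Ctss, a cysteine protease that cuts the invariant chain during antigen presentation, had 4380 CPM in young and 4770 CPM in old macrophage-like cells. In somatotroph-like cells it had 9.86 and 28.0 CPM, a ratio of 444 (393 to 503) and 170 (149 to 196), and in stem cell-like cells 14.4 and 28.0 CPM. The next highest ratio to somatotroph-like cells was 39.0 in the young library, for Lipa, and 27.4 in the old, for Lgmn. Ctsd, the main aspartic protease of lysosomes, had 3900 and 2890 CPM in macrophage-like, 451 and 366 CPM in stem cell-like and 127 and 122 CPM in somatotroph-like cells. It was 30.8 (29.7 to 32.0) and 23.6 (22.0 to 25.3) times higher in macrophage-like than in somatotroph-like cells. Ctsb, a cysteine protease, had 3080 and 1920 CPM in macrophage-like cells, 14.9 and 10.5 times the level of somatotroph-like cells. Lgmn, the asparaginyl endopeptidase that processes cathepsins, had 1200 and 1060 CPM there and 43.3 and 38.5 CPM in somatotroph-like cells, a ratio of 27.6 and 27.4. Ctsa, the carboxypeptidase that protects Neu1 and Glb1, was 16.1 and 15 times higher than in somatotroph-like cells, Ctsz 6.91 and 6.14 times and Tpp1, a tripeptidyl peptidase, 3.91 and 3.35 times.

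Ctsl was the protease that did not stand out. This cysteine protease had 652 and 673 CPM in macrophage-like cells, 1.77 and 2.59 times the 369 and 260 CPM of somatotroph-like cells. Gonadotroph-like cells had 651 and 609 CPM of it, and young lactotroph-like cells 525 CPM.

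Among the glycosidases, Man2b1, an alpha-mannosidase, differed most. Its 492 and 454 CPM in macrophage-like cells were 19.7 (18.0 to 21.5) and 21.5 (18.1 to 25.6) times the level of somatotroph-like cells. Hexa, a subunit of beta-hexosaminidase, had 581 and 403 CPM, 6.82 and 5.75 times that level, and the alpha-galactosidase Gla 5.17 and 4.12 times. Neu1, a sialidase, reached 1.75 and 2.65 times and the beta-galactosidase Glb1 1.82 and 2.09 times, so that neither was 2-fold higher in both libraries. Gaa, which breaks down glycogen, ran the other way. Macrophage-like cells had 46.7 and 59.3 CPM of it, somatotroph-like cells 146 and 122 CPM, and melanotroph-like cells the most, 359 and 287 CPM. The ratio of macrophage-like to somatotroph-like cells was 0.320 (0.272 to 0.374) and 0.485 (0.400 to 0.584). In the old library this lies close to the limit of 2-fold, and the call was lost when doublets were kept, with a minimum of 1000 UMIs per barcode, with a mitochondrial limit of 10% or with all UMIs as the total.

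Of the enzymes that act on lipids or thioesters, Lipa, the acid lipase that splits cholesteryl esters, differed most. It had 189 and 161 CPM in macrophage-like, 13.7 and 13 CPM in stem cell-like and 4.84 and 7.44 CPM in somatotroph-like cells. The ratio to somatotroph-like cells was 39.0 (32.3 to 47.4) and 21.7 (16.3 to 29.3). The ceramidase Asah1, with 218 and 250 CPM, was 4.64 and 4.46 times higher than in somatotroph-like cells, and the thioesterase Ppt1, with 156 and 152 CPM, 4.62 and 3.89 times. Between macrophage-like and stem cell-like cells Ppt1 differed by less, 1.95 and 1.92 times.

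Genes of the lysosomal membrane were spread more evenly. Lamp1, an abundant glycoprotein of that membrane, had 751 and 732 CPM in macrophage-like cells, 3.28 and 3.41 times the level of somatotroph-like cells. Stem cell-like cells came close, with 514 and 529 CPM. Lamp2, which also serves chaperone-mediated autophagy, had 390 and 363 CPM against 262 and 269 CPM in somatotroph-like cells. The tetraspanin Cd63 had 1100 and 845 CPM against 650 and 591 CPM, and Scarb2, the receptor that carries glucocerebrosidase to lysosomes, 148 and 152 CPM against 83.8 and 84.0 CPM. None of these last 3 was 2-fold higher than in somatotroph-like cells in both libraries.

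The precursor proteins differed from each other in stem cell-like cells. Psap, the precursor of the saposins that help hydrolases reach lipids, had 1600 and 1740 CPM in macrophage-like and 1340 and 1240 CPM in stem cell-like cells, a ratio of 1.20 (1.16 to 1.24) and 1.40 (1.33 to 1.47). Somatotroph-like cells had 241 and 217 CPM of Psap. Grn, the precursor of granulins, had 665 and 456 CPM in macrophage-like but 111 and 76.1 CPM in stem cell-like cells, a ratio of 6.00 and 5.99. In the pair that exports cholesterol from lysosomes, the soluble Npc2 and the membrane protein Npc1 also parted. Npc2 had 1190 and 869 CPM in macrophage-like cells, 4.79 and 4.37 times the level of somatotroph-like cells. Npc1 had 48.1 and 41.2 CPM, 0.791 (0.672 to 0.927) and 0.648 (0.511 to 0.814) times that level. Stem cell-like cells had 68.2 and 71.0 CPM of Npc1 and melanotroph-like cells 65.8 and 72.8 CPM.

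None of the 3 V-ATPase genes of the set was 2-fold higher than in somatotroph-like cells in both libraries, although Atp6v1a and Atp6ap1 were higher by less. Other subunits were not compared between classes. Atp6v0d1, a subunit of the membrane sector, had 86.4 and 78.3 CPM in macrophage-like and 91.9 and 83.4 CPM in somatotroph-like cells, ratios of 0.940 (0.832 to 1.06) and 0.939 (0.787 to 1.11). Corticotroph-like cells had the most, 143 and 134 CPM. Atp6v1a, the catalytic subunit, had 103 and 74.1 CPM in macrophage-like and 55.1 and 52.5 CPM in somatotroph-like cells. The accessory subunit Atp6ap1 had 127 and 133 CPM against 78.2 and 71.6 CPM, and gonadotroph-like cells had 154 and 151 CPM of it. Together these 3 genes were 1.33% and 1.41% of the lysosome UMIs of macrophage-like cells, but 6.36% and 6.61% in somatotroph-like and 9.93% and 9.76% in corticotroph-like cells. Tfeb itself had few UMIs, 40 and 28.7 CPM in macrophage-like and 10.5 and 7.04 CPM in somatotroph-like cells, a ratio of 3.81 (3.09 to 4.68) and 4.08 (2.78 to 6.00).

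**Figure D2:**
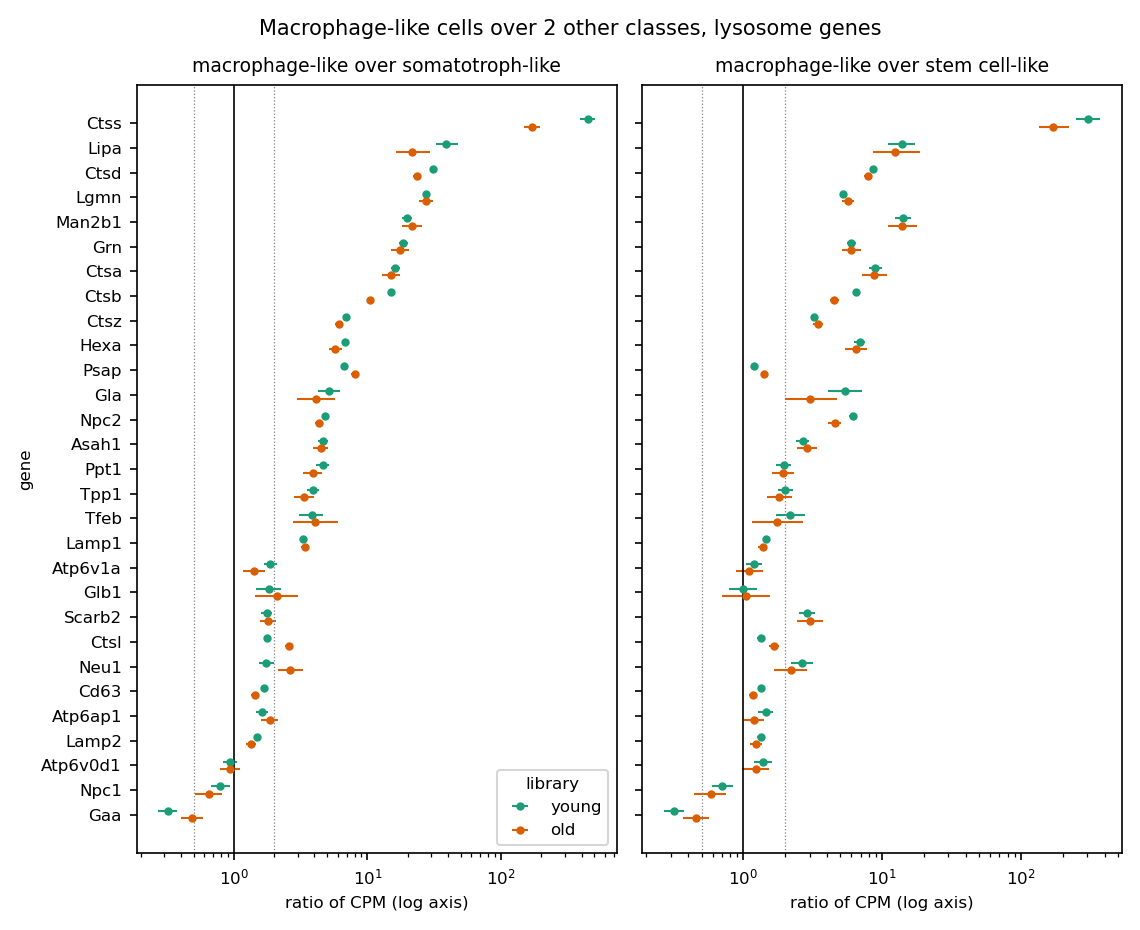
Ratio of CPM in macrophage-like cells to somatotroph-like (left) and stem cell-like cells (right) for each gene, on log axes, in the young and the old library, with 95% intervals for counting error. The solid line marks equal levels and the dotted lines 2-fold; Ctss lies furthest right at 444 and 170 on the left, and Gaa is the gene left of the lower dotted line in both panels.

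Promoters with CACGTG were found on both sides of this divide. Of the 18 genes higher in macrophage-like than in somatotroph-like cells, 16 had a promoter window and 5 of those held the core. Of the 11 others, 10 had a window and 5 held it. Gaa and Atp6v0d1 thus carry it, as Ctsd and Lgmn do. A match of letters is a description and not evidence that the site is bound.

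The share of cells with a UMI, after thinning each cell to 2000 UMIs, gave the same order. Ctss was seen in 98.7% (97.6 to 99.4) of young and 96.9% (94.7 to 98.3) of old macrophage-like cells. It was seen in 1.40% and 5.73% of somatotroph-like and 12.9% and 18.9% of T or NK cell-like cells. The latter are given as a further class and not as a floor. Before thinning, the shares in somatotroph-like cells were 5.18% and 14.6%, at median depths of 9623.5 and 6571 UMIs, against 23.1% and 36.7% in T or NK cell-like cells at 3998 and 5437 UMIs. For Ctsd the thinned shares were 83.7% (80.9 to 86.3) and 75.3% (70.8 to 79.4) in macrophage-like, 51.7% and 50.4% in stem cell-like, 13.6% and 15.3% in somatotroph-like and 42.9% and 45.0% in T or NK cell-like cells. The shares of somatotroph-like cells thus lay below those of T or NK cell-like cells for both genes. Thinning counted hormone UMIs, unlike CPM. Growth hormone (Gh) was 43.7% and 32.6% of the UMIs of somatotroph-like cells, against 7.42% and 4.85% in T or NK cell-like cells. Fewer UMIs of other genes were therefore left in somatotroph-like cells, most of all in the young library. Psap was seen in 88.1% and 85.0% of stem cell-like cells, close to the 90.1% and 88.1% of macrophage-like cells and above the 19.7% and 26.6% of T or NK cell-like cells. Tfeb was seen in 6.27% (4.64 to 8.25) of young and 4.60% (2.79 to 7.09) of old macrophage-like cells.

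Set against the profile of barcodes of at most 100 UMIs, the 3 endocrine classes with the most cells held no lysosome gene at 2-fold or more above free RNA in both libraries. In that profile the 29 genes summed to 5031 CPM in the young and 5768 CPM in the old library, more than in somatotroph-like, lactotroph-like or corticotroph-like cells. In somatotroph-like cells 0 of the 29 genes were 2-fold higher than in the profile in both libraries and 5 were lower, against 11.0% and 8.17% of all genes. The 5 were Ctsa, Ctsd, Ctss, Grn and Lgmn, each of which was at least 15 times higher in macrophage-like than in somatotroph-like cells. In the old library alone, Npc1 (2.77 times) and Lamp2 (2.11 times) were past 2-fold higher in somatotroph-like cells, and Npc1 and Atp6v1a in lactotroph-like (2.89 and 2.43 times) and corticotroph-like cells (2.54 and 2.58 times). The counts were 0 and 5 in lactotroph-like (11.1% and 5.72% of all genes) and 0 and 9 in corticotroph-like cells (12.8% and 7.43%). In stem cell-like cells 3 genes were higher, namely Psap, Tpp1 and Atp6v1a, and Ctss was lower (17.4% and 9.32%). Psap had 414 and 544 CPM in the profile, against 1340 and 1240 CPM in stem cell-like cells. In melanotroph-like cells Gaa and Atp6v1a were higher and 6 genes lower (19.7% and 6.95%), and Gaa had 133 and 131 CPM in the profile. Macrophage-like cells had 20 genes higher and 1, Gaa, lower (12.7% and 22.8%).

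Between ages, lysosome genes of macrophage-like cells leaned towards lower levels in the old library, although most differences were small. A difference between ages was called at 1.5-fold with at least 20 UMIs over both libraries. All 29 genes could be compared, and 0 were higher and 1 lower past that fold, where 22.2% of all genes in these cells were higher and 3.98% lower. The 1 gene was Ctsb, at 3080 CPM in the young and 1920 CPM in the old library, a ratio of 0.622 (0.60 to 0.645). The set's median log2 ratio was -0.22 against 0.23 for all 11009 genes compared, and 22 of 29 genes lay below 0. Their summed level went from 23730 to 20200 CPM, a ratio of 0.851. The sum of the 8 macrophage markers had a ratio of 0.814 (0.804 to 0.825) in the same cells, but the markers went both ways. Higher in the old library were 3 of the 8, Csf1r (798 and 916 CPM), Cx3cr1 (1040 and 1080 CPM) and Mrc1 (84.7 and 140 CPM). The others were lower, among them C1qa (6850 and 5450 CPM) and C1qb (6750 and 5120 CPM). Markers of other cells moved too, with 5 erythroid markers at 2080 and 319 CPM (0.153), 8 markers of T or NK cells at 153 and 60.7 CPM (0.396), 6 neutrophil markers at 70.1 and 124 CPM (1.77) and 7 endothelial markers at 11.3 and 85.7 CPM (7.61). The sum for T or NK cells was lower although 7 of its 8 markers were higher with 0.5 UMI added. Ncr1, counted among these, had 0 UMIs in both libraries. The part of all these markers in the result was not tested. With a minimum of 1000 UMIs per barcode, or with each cell weighted alike, 4 genes were past 1.5-fold lower.

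Genes of several soluble proteins were lower in the old library without passing 1.5-fold. Their ratios were 0.686 for Grn (0.636 to 0.739), 0.693 for Hexa (0.640 to 0.751), 0.718 for Ctsz (0.687 to 0.751), 0.731 for Npc2 (0.692 to 0.772), 0.735 for Ctsa (0.676 to 0.798) and 0.741 for Ctsd (0.719 to 0.764). The membrane tetraspanin Cd63 had a ratio of 0.770 (0.728 to 0.814). Ctss, from 4380 to 4770 CPM, and Psap, from 1600 to 1740 CPM, were slightly higher in the old library, at 1.09 (1.06 to 1.12) and 1.08 (1.04 to 1.13). Also higher were the soluble enzymes Gaa, at 46.7 and 59.3 CPM (166 and 128 UMIs), Ctsl, at 652 and 673 CPM, and Asah1. With Scarb2 and Atp6ap1 these were the 7 genes above 0 on the log2 scale. Soluble and membrane proteins were not compared as groups. The membrane proteins Lamp1 (0.974, 0.915 to 1.04) and Lamp2 (0.931, 0.852 to 1.02) and the lipid enzyme Ppt1 (0.973, 0.846 to 1.12) were close to even. Tfeb went from 40 to 28.7 CPM, a ratio of 0.719 (0.524 to 0.975) resting on 142 and 62 UMIs.

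**Figure D3:**
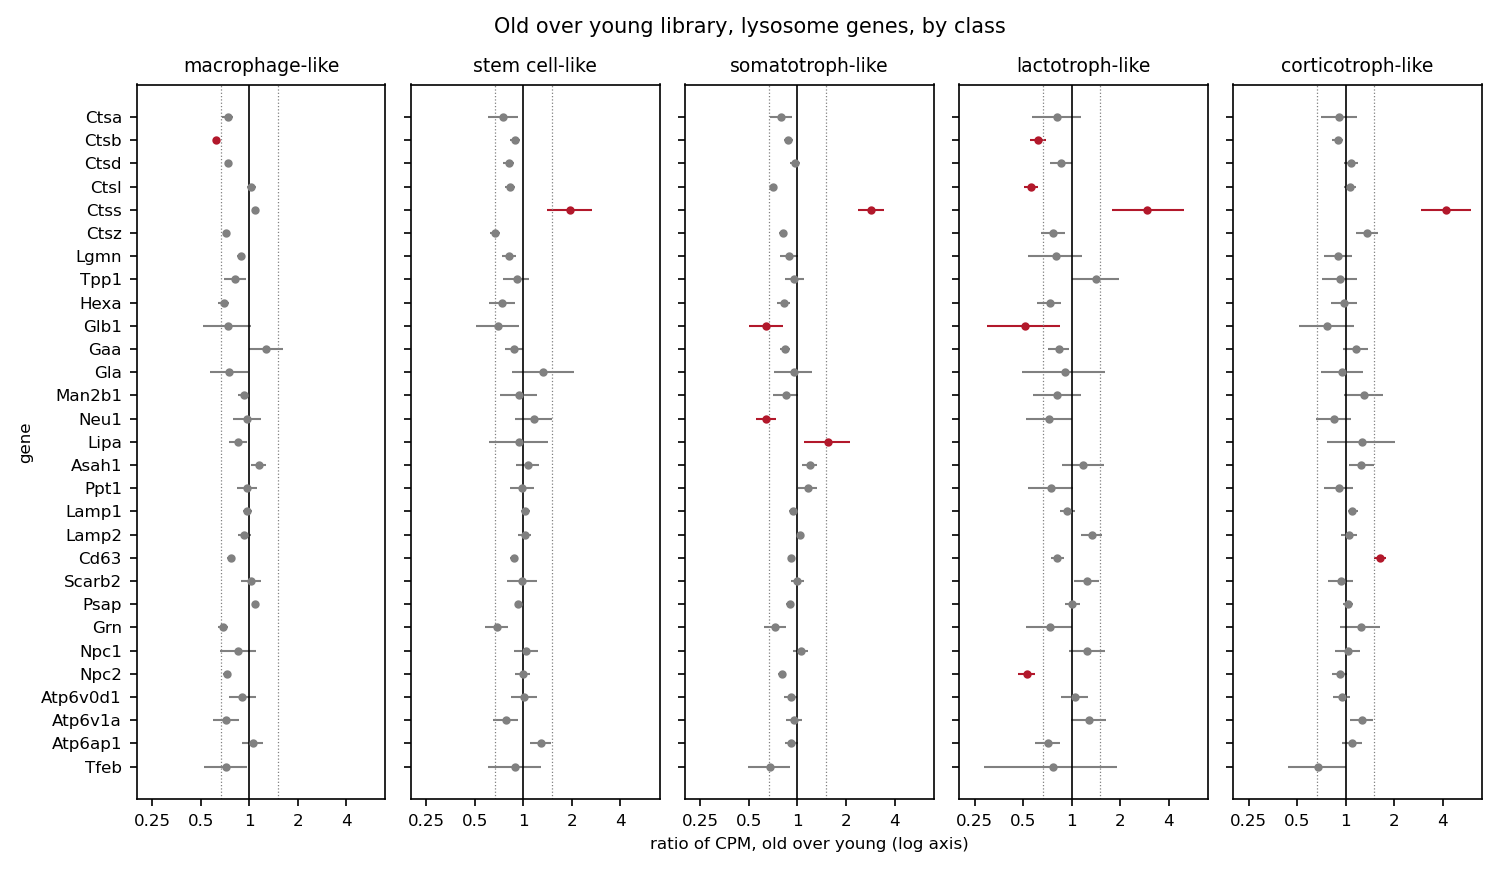
Ratio of CPM in the old to the young library for each gene, on log axes, in 5 classes, with 95% intervals for counting error; the dotted lines mark 1.5-fold and red points lie past it. In macrophage-like cells Ctsb at 0.622 is the red point, and Ctss is the gene past 1.5-fold to the right in each of the other 4 classes.

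The macrophage-like class was made of 3 clusters, and these differed. Cluster 15 (453 young and 216 old cells) was led by Ms4a7, Rgs1 and the chemokine genes Ccl3 and Ccl4, cluster 16 (196 and 110 cells) by Cx3cr1, Siglech, Trem2 and Gpr34, and cluster 8 (101 and 87 cells) by Ms4a7 and complement genes at a low median depth of 2398 and 2755 UMIs. In cluster 15, 7 genes were past 1.5-fold lower in the old library (Ctsa, Ctsb, Ctsd, Ctsz, Grn, Hexa and Glb1) and 0 higher, against 5.70% and 25.4% of all genes. In cluster 16 only Atp6v1a was lower and 0 genes were higher (7.33% and 17.0%). In cluster 8, where 25 genes could be compared, 9 were lower and 2, Gaa and Lipa, higher (9.97% and 22.2%). The median log2 ratios were -0.22, -0.06 and -0.54, against 0.24, 0.12 and 0.08 for all genes of each cluster. The difference between clusters was not tested.

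Ctsd showed it most clearly. In cluster 15 it went from 2850 CPM in the young to 1110 CPM in the old library, a ratio of 0.389 (0.366 to 0.413). In cluster 16 it went from 5900 to 5680 CPM, a ratio of 0.962 (0.926 to 1.00), and in cluster 8 from 4400 to 2450 CPM, 0.557 (0.50 to 0.620). The levels of cluster 16 were thus higher than those of cluster 15 in both libraries and nearly the same at both ages. Per cell, thinned to 2000 UMIs, the median of Ctsd in cluster 15 was 3 UMIs in the young (quartiles 1 and 8) and 1 in the old library (0 and 3), and in cluster 16 it was 8.5 (5.75 and 13) and 9 (6 and 13). Cells of cluster 15 with a thinned Ctsd UMI were 75.9% (71.7 to 79.8) and 65.7% (59.0 to 72.0), and before thinning 88.7% and 84.3%. Ctsb went from 2910 to 1580 CPM in cluster 15, a ratio of 0.543 (0.515 to 0.572), and from 3550 to 2590 CPM in cluster 16, 0.729 (0.690 to 0.769). In cluster 15 Ctss stayed level, at 3760 and 3710 CPM (0.986, 0.95 to 1.02), and Psap was slightly higher in the old library, at 1600 and 1810 CPM (1.14, 1.08 to 1.20).

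Other measures of cluster 15 differed less between the libraries than Ctsd. Its cells had median depths of 5114 and 5361 UMIs, mitochondrial shares of 2.66% and 2.72% and growth hormone (Gh) shares of 6.61% and 5.89%. The macrophage markers summed to 17700 and 12900 CPM in cluster 15, to 24300 and 22400 CPM in cluster 16 and to 23800 and 13800 CPM in cluster 8. These sums were thus also lower in the old library, but single markers of clusters 15 and 16 went both ways. In cluster 16, C1qa went from 7920 to 7090 CPM, Csf1r from 1350 to 1510 CPM and Cx3cr1 from 1780 to 2040 CPM. Within the marker list of cluster 15, C1qa went from 6180 to 4450 CPM and Csf1r from 537 to 598 CPM. Their part in the result was not tested. Cluster 15 held 60.4% (56.8 to 63.9) of young and 52.3% (47.4 to 57.2) of old macrophage-like cells. When the lysosome lists were kept out of the clustering, 453 of 453 young and 214 of 216 old cells of cluster 15 fell into 1 cluster again, and Ctsd there had 2850 and 1130 CPM, a ratio of 0.395 (0.372 to 0.420).

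**Figure D4:**
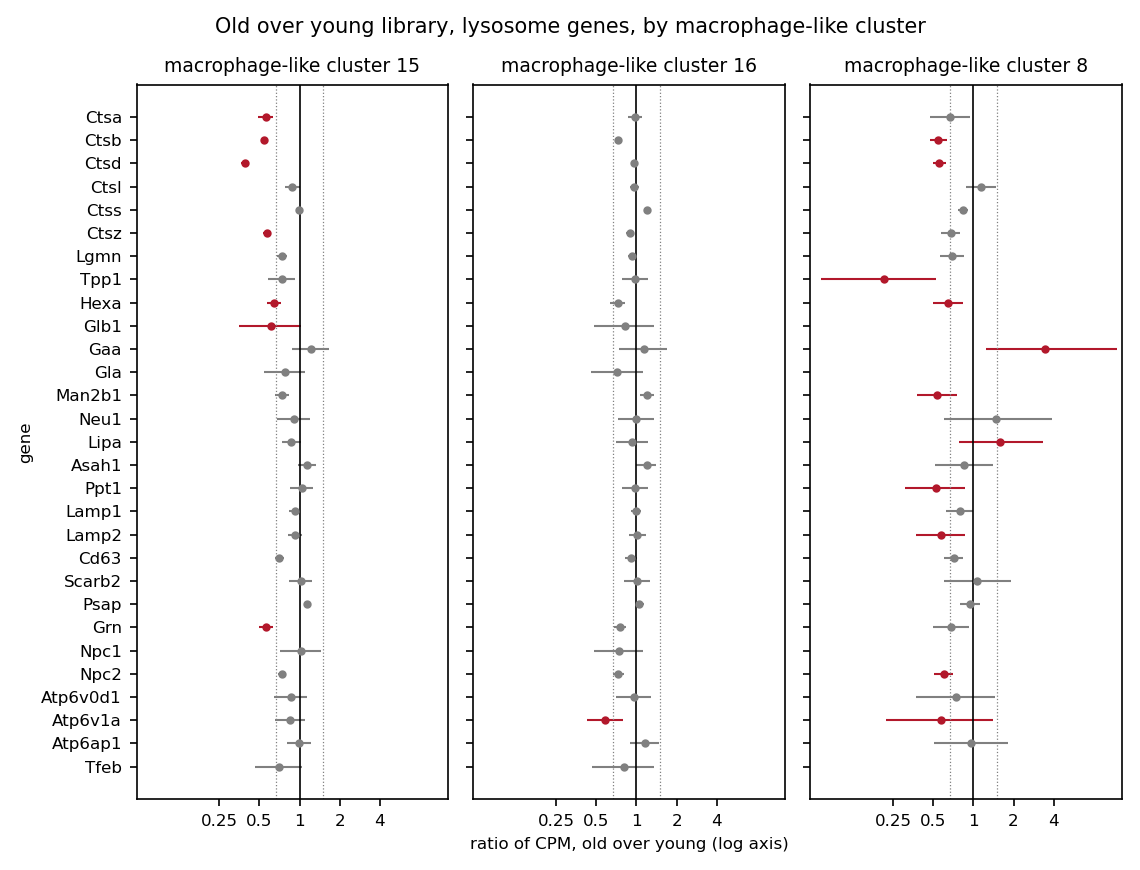
Ratio of CPM in the old to the young library for each gene in the 3 macrophage-like clusters, on log axes, with 95% intervals for counting error; dotted lines mark 1.5-fold, red points lie past it, and genes under 20 UMIs are left blank. Ctsd lies at 0.389 in cluster 15 and at 0.962 in cluster 16.

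In endocrine and stem cells, few lysosome genes differed between ages past 1.5-fold. In somatotroph-like cells 2 of the 29 were higher and 2 lower in the old library, against 12.2% and 8.60% of all genes, with a median log2 ratio of -0.14 against 0.03. With all UMIs as the total, the share left after hormones being 52.3% (young) and 62.9% (old), every log2 ratio in this class rose by 0.27, the median became 0.13, and 2 genes were higher and 0 lower. The sialidase Neu1 was lower, at 44.3 and 28.3 CPM (0.638, 0.549 to 0.739), and so was Glb1, at 17.6 and 11.3 CPM (0.641, 0.503 to 0.809). Lipa, at 4.84 and 7.44 CPM (1.54, 1.10 to 2.12), and Ctss were higher. The largest cluster of this class differed between the libraries. It was cluster 1 in the young (1759 young and 195 old cells) and cluster 10 in the old library (1306 and 425). Their median depths were 17489 and 4255 UMIs.

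Among the endocrine and stem classes compared, lactotroph-like cells had the most lower genes. Of 28 genes compared, 4 were lower and 1, Ctss, higher, against 8.68% and 20.3% of all genes, with a median log2 ratio of -0.29 against 0.13. Lipa was too rare to compare. The 4 were Glb1, at 24.3 and 12.4 CPM (0.512, 0.297 to 0.850), Npc2, at 408 and 215 CPM (0.526, 0.465 to 0.593), Ctsl, at 525 and 293 CPM (0.559, 0.503 to 0.620), and Ctsb, at 387 and 240 CPM (0.618, 0.550 to 0.695). In the profile of free RNA, Npc2 had 349 and 427 CPM, Ctsl 410 and 402 CPM and Ctsb 394 and 385 CPM, so that Npc2 was higher in the old profile and the other two differed less there than in the cells. With that profile subtracted, scaled by Gh as though lactotroph-like cells made none, 11 genes were lower and 2 higher. With all UMIs as the total 3 were lower and 2 higher.

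In corticotroph-like and stem cell-like cells few lysosome genes differed between the libraries, while markers did. The 5 corticotroph markers summed to 1060 and 542 CPM in corticotroph-like cells (0.512, 0.485 to 0.541), and 5 erythroid markers to 429 and 3580 CPM in stem cell-like cells (8.34, 8.00 to 8.69), and their part in the results was not tested. In corticotroph-like cells 2 of 29 genes were higher, Ctss and Cd63, and 0 lower, against 12.2% and 7.17% of all genes, with a median log2 ratio of 0.05 against 0.08. Cd63 went from 188 to 304 CPM, a ratio of 1.62 (1.49 to 1.77). It lay below the profile of free RNA, at 766 and 854 CPM, in both libraries, and is named here after its value was seen. In stem cell-like cells 1 gene, Ctss, was higher and 0 lower, against 11.2% and 5.68% of all genes, with a median log2 ratio of -0.11 against 0.05. With all UMIs as the total, each class had 1 lower gene and as many higher genes as before.

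Ctss was past 1.5-fold higher in the old library in each endocrine and stem class compared, and is likewise named after its values were seen, since it lay far under its level in free RNA. It went from 9.86 to 28.0 CPM in somatotroph-like cells (2.84, 2.36 to 3.42), from 9.65 to 28.5 CPM in lactotroph-like cells (2.95, 1.78 to 4.99), from 7.26 to 30.3 CPM in corticotroph-like cells (4.17, 2.94 to 5.96) and from 14.4 to 28.0 CPM in stem cell-like cells (1.95, 1.41 to 2.67). In the profile of free RNA it went from 217 to 439 CPM (2.02, 1.84 to 2.23). There Ctss and Lgmn were the 2 genes past 1.5-fold higher and Npc1 the 1 lower (12.0% and 18.4% of all genes). The 8 macrophage markers moved in the same direction, summing to 48.4 and 97.0 CPM in somatotroph-like (2.00, 1.83 to 2.19), 66.0 and 110 CPM in lactotroph-like, 37.1 and 91.6 CPM in corticotroph-like and 60.2 and 119 CPM in stem cell-like cells. In somatotroph-like and stem cell-like cells 7 of the 8 markers were higher in the old library and none was at 0, in corticotroph-like cells 7 were higher, with Mrc1 at 0 in the young and Pf4 at 0 in the old library, and in lactotroph-like cells 6 were higher, with Mrc1 at 0 in the old library. Markers of other cells were also higher in old somatotroph-like cells, by ratios of 10.1 for 6 neutrophil markers (4.28 and 43.4 CPM in sum), 9.19 for 6 monocyte markers (0.665 and 6.11 CPM), 3.69 for 8 markers of T or NK cells (8.90 and 32.8 CPM) and 3.18 for 7 endothelial markers (4.51 and 14.3 CPM). Other lists rose by less there, with ratios of 2.49 for 4 lactotroph, 1.72 for 8 stem cell, 1.34 for 6 B cell and 1.21 for 5 erythroid markers. The 5 corticotroph markers were close to even (1.06, 0.853 to 1.31). Other lysosome genes with high levels in macrophage-like cells went both ways in somatotroph-like cells. Lyz2, which encodes a lysozyme, went from 7.87 to 27.1 CPM and Laptm5, a lysosomal membrane gene of blood cells, from 3.25 to 9.70 CPM. Ctsd was at 127 and 122 CPM, Lgmn at 43.3 and 38.5 CPM, Ctsb at 208 and 182 CPM, Ctsa at 32.5 and 25.8 CPM and Grn at 35.9 and 26.0 CPM. The profile of at most 100 UMIs was then subtracted, scaled by Pomc in somatotroph-like cells and by Gh in the other classes. This takes the hormone to be absent from the class, which was not tested. Gh was 9.78% and 6.61% of the UMIs of lactotroph-like cells, against 4.67% and 2.90% of corticotroph-like cells. The subtraction took 24.2% and 22.8% of lactotroph-like UMIs, and is too large if these cells make Gh. After it, Ctss had 0 CPM in both libraries in somatotroph-like, lactotroph-like and corticotroph-like cells, and 1.09 and 0 CPM in stem cell-like cells. Macrophage-like cells then had 4830 and 5450 CPM. With the profile of barcodes of 500 to 900 UMIs subtracted instead, Ctss had 4.54 and 0 CPM in somatotroph-like, 0 CPM in both libraries in lactotroph-like, 1.68 and 3.94 CPM in corticotroph-like and 9.90 and 0 CPM in stem cell-like cells.

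**Figure D5:**
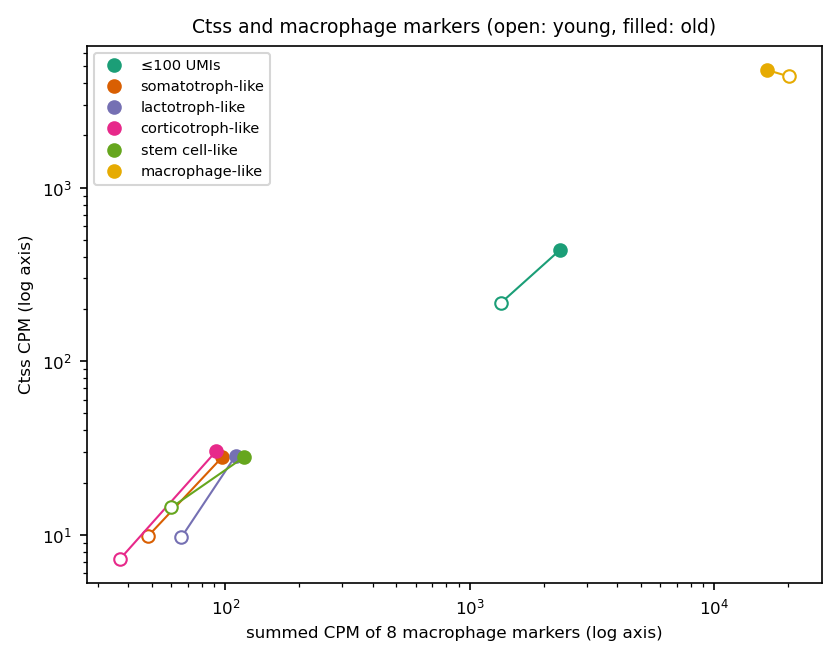
Ctss CPM against the summed CPM of 8 macrophage markers, on log axes, with a line from the young (open) to the old (filled) library for each class and for barcodes of at most 100 UMIs. Endocrine and stem classes moved from 7.26 to 14.4 CPM of Ctss in the young to between 28.0 and 30.3 CPM in the old library as their marker sums went up, while macrophage-like cells moved little.

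Smaller classes went in several directions. In T or NK cell-like cells 12 of 28 genes were past 1.5-fold higher and 1 lower (23.2% and 5.52% of all genes), with a median log2 ratio of 0.40 against 0.18. Lamp1 went there from 76.5 to 153 CPM (2.00, 1.41 to 2.87) and Psap from 125 to 219 CPM (1.75, 1.33 to 2.32), while Ctss went from 81.7 to 214 CPM. The levels of Ctss and Psap lay below those of free RNA in both libraries. That comparison is not given here for Lamp1, so Lamp1 should not be read as lying above free RNA. In endothelial cell-like cells (85 and 78) 7 of 27 genes were higher and 1 lower (15.7% and 17.0%). Pituicyte-like cells (52 and 83) had 8 of 28 genes lower and 1 higher (11.0% and 19.7%), with a median of -0.39 against 0.06. Cd63 went there from 1140 to 673 CPM (0.591, 0.517 to 0.676) and Psap from 691 to 426 CPM (0.616, 0.519 to 0.732). Both lay above their level in free RNA in the young library and below it in the old. In monocyte-like cells 4 of 28 genes were lower and 1 higher (7.37% and 16.7%), and Grn went from 235 to 126 CPM (0.538, 0.412 to 0.701). The genes of these classes are named after their values were seen.

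The other genes of the pathway, listed by role, mostly stayed within 1.5-fold between ages in macrophage-like cells, where the same shares of all genes as above apply. Of 8 further proteases measured, 0 were higher and 1 was lower, Dpp7, at 40.5 and 24.6 CPM (0.606, 0.434 to 0.836). Of 25 further hydrolases 0 were higher and 2 lower, namely the phosphatase Acp5, at 76.3 and 42.2 CPM (0.553, 0.431 to 0.703), and the sulfatase Galns, at 9.29 and 3.24 CPM. Of 21 membrane proteins and sorting receptors Cd68, a glycoprotein of macrophage lysosomes, was lower, at 708 and 383 CPM (0.541, 0.50 to 0.586), and Laptm4b higher, at 14.6 and 25.5 CPM. The V-ATPase list had 14 measured genes, of which Atp6v0c, of the proton-carrying ring, was lower, at 1150 and 764 CPM (0.663, 0.626 to 0.703), and Atp6v0e2 higher. Among 18 autophagy genes 2 were higher, Wipi1, at 9.85 and 16.2 CPM, and Rb1cc1, which acts at the start of autophagosome formation, at 74.9 and 115 CPM (1.54, 1.29 to 1.84), and 0 were lower. Of 15 genes of the TFEB family and of mTORC1 at lysosomes 0 were higher and 2 lower, Tfec, at 6.75 and 3.71 CPM, and Rragd. Of 4 measured cathepsin inhibitors Cstb was lower, at 195 and 126 CPM (0.643, 0.557 to 0.741), and Cst6 higher. Atp6v0e2, Rragd and Cst6 are named after their values were seen. The medians of these lists ran from -0.18 to 0.13 on the log2 scale, against 0.23 for all genes.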

How the data were processed

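The deposited files are raw UMI counts per gene and barcode, before any cell calling. The submitters' processing notes name Cell Ranger 6.0.2 and build GRCm39, but the deposited matrices carry a header of version 4. The 29 genes, their roles and the other lists were chosen with earlier results of these data known. Barcodes needed 2000 UMIs, 500 genes and at most 15% mitochondrial UMIs. Scrublet's own threshold called 0 young and 3 old doublets, so the highest scores were removed at 0.8% per 1000 barcodes (679 and 766). Both libraries were clustered together (scanpy 1.11.5, 3000 variable genes, 40 components, 15 neighbours, Leiden resolution 1) and named from markers of 21 classes. An unnamed cluster led by Gh (310 and 202 barcodes) entered no class. Counts were summed per class and library, scaled without 7 hormone and 13 mitochondrial genes, and compared with exact conditional Poisson intervals. Log2 ratios had 0.5 UMI added. Shares have exact Clopper-Pearson intervals. No p-value was computed. Members past the fold were named when their higher level was at least 0.5 times that of the barcodes of at most 100 UMIs, and of each other list at most 3. On simulated counts the ratios and intervals were checked. Promoter windows come from RefSeq (GRCm38.p6), another build than the counts.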

Additional observations from a re-analysis of the deposited data

Results flagged for a closer look

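Cd63 and Lipa ran in opposite directions between classes. Cd63 was past 1.5-fold higher in old corticotroph-like cells, at a ratio of 1.62 (1.49 to 1.77), and lower in macrophage-like cells at 0.770 (0.728 to 0.814), in lactotroph-like cells at 0.816, in stem cell-like cells at 0.878 and in somatotroph-like cells at 0.909, with intervals wholly under 1. Its share of corticotroph-like cells with a UMI after thinning was 23.2% (20.9 to 25.7) in the young and 36.7% (31.3 to 42.3) in the old library, against 19.7% and 18.9% of T or NK cell-like cells, and before thinning 53.6% and 69.8%. Lipa was past 1.5-fold higher in old somatotroph-like cells, at 1.54 (1.10 to 2.12), and lower in macrophage-like cells at 0.855 (0.749 to 0.975). Neither difference between classes was tested, and each class is 1 library an age.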

How the results depend on the processing

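Of the ratios of single genes past 1.5-fold, none changed sign under any alternative run. No median was past 1.5-fold and counts and shares have no sign, so this rule could find no reversal among them. Over all alternatives, 69 of 71 medians between ages stayed within the limits set, as did 266 of 308 counts and 102 of 113 ratios of single genes. Of 18 shares of cells with a UMI, 17 moved outside their interval without thinning, each to a higher share. The median of macrophage-like cells ran from -0.28 to -0.14, and that of corticotroph-like cells from -0.02 to 0.08. That of somatotroph-like cells, -0.14, changed sign to 0.13 with all UMIs as the total and was -0.30 with the profile of 500 to 900 UMIs subtracted.

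For genes lower in old macrophage-like cells (1), a minimum of 1000 UMIs and the mean over cells gave 4 and young cluster weights gave 2. In somatotroph-like cells, 1 gene was higher instead of 2 with a minimum of 3000 UMIs or with either profile subtracted, and the lower ones, 2, became 0 with all UMIs, 6 with the profile of at most 100 UMIs and 5 with the other profile subtracted. In lactotroph-like cells the 1 higher gene became 2 with a minimum of 1000 or 3000 UMIs, a resolution of 0.5, all UMIs, the profile of at most 100 UMIs subtracted or no minimum for a gene, and 0 with the other profile subtracted. The 4 lower ones became 8 with a mitochondrial limit of 10%, 11 with the profile of at most 100 UMIs and 13 with the other. Both subtractions take lactotroph-like cells to make no Gh, which was not tested. In corticotroph-like cells the 2 higher genes became 1 with a minimum of 1000 UMIs or doublets kept, and the 0 lower ones became 1 with a mitochondrial limit of 10%, all UMIs, either profile subtracted or the mean over cells. In stem cell-like cells the 1 higher gene became 0 with either profile subtracted, and the 0 lower ones became 1 with all UMIs or the mean over cells and 3 with either profile subtracted.

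The 1 gene lower in macrophage-like cells became 0 against somatotroph-like cells with a minimum of 1000 UMIs, a mitochondrial limit of 10%, doublets kept or all UMIs, against stem cell-like cells with doublets kept, and against gonadotroph-like cells with a minimum of 1000 UMIs, doublets kept, a resolution of 0.5, all UMIs or the mean over cells. The causes were not tested. Leaving out cluster 8 of the macrophage-like cells, an alternative chosen after seeing the data, changed none of these counts by more than 1.5 times. Under a mitochondrial limit of 10% no melanotroph-like cluster was named, so it gave no value there. No paired analysis was possible because each age has 1 library and the groups share fewer than 2 replicate numbers. Precision rests on 51 to 15551 UMIs a gene and library in macrophage-like cells, and on as few as 8 in old lactotroph-like cells.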
